A study of Mus musculus with 12 samples.

Results

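The measurement described here is how far the effect of lacking β3 integrin on transcript levels differed between spleen and lung. It is the β3−/− minus WT difference in spleen, less the same difference in lung, on the scale of log2(FPKM + 0.1), where FPKM is the fragment count normalised to transcript length and library size. A value of 1 means that the β3−/− to WT ratio was 2-fold larger in spleen than in lung. A gene was included if it was listed in both tissues and reached 1 FPKM in at least 3 of the 6 libraries of each, with Y-linked genes left out, which gave 11690 of the 22924 genes listed in the series. All 12 libraries entered: lung and spleen of 3 WT mice and of 3 mice lacking the β3 integrin gene Itgb3 (labelled ITGB3 KO, here β3−/−), adults on the C57BL/6 background with no treatment given in the labels. The knockout is constitutive, so both tissues carry it. The WT mice were purchased and the β3−/− mice were a gift, and the sources used here do not say that they were littermates.

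The Y-linked helicase gene Ddx3y was between 16.9 and 25.2 FPKM in all 6 WT libraries and at 0 in all 6 β3−/− libraries, so the sex and the origin of the mice cannot be told apart from genotype. The tissue labels fitted their markers: Sftpc, a surfactant protein of alveolar type 2 cells, was between 13053 and 23093 FPKM in lung and at most 0.261 in spleen, and Spic, a factor of splenic red pulp macrophages, was between 46.7 and 60.7 FPKM in spleen and at most 0.681 in lung. Itgb3 itself stood at 3.68, 4.39 and 4.14 FPKM in WT and 1.94, 1.34 and 1.29 FPKM in β3−/− lung. Its spleen levels were 10.6, 8.95 and 8.5 FPKM in WT and 3.57, 4.02 and 3.52 FPKM in β3−/− spleen. All β3−/− libraries were below all WT libraries of the same tissue, and the difference between tissues was 0.07 (SE 0.23, adjusted p = 0.885). Libraries of a tissue correlated with each other at r = 0.9449 to 0.9782 in lung and 0.9315 to 0.9876 in spleen. WT spleen 2 and β3−/− spleen 2 carried pancreas transcripts, with sums over 21 exocrine genes of 2752 and 286 FPKM against 21.5 to 31.2 in the other spleens. Without both, 88 genes were called higher or lower in the comparison between tissues, and 58 of the 98 genes called with all libraries were among them. The ubiquitin gene Ubb was between 570 and 688 FPKM in WT lung 1, WT lung 2 and β3−/− lung 3 and between 4.52 and 4.97 in the other 3 lungs.

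As background, the mouse spleen makes red cells throughout life, and expands this output under demand. Erythroblasts in its red pulp build heme, assemble the membrane skeleton and shed organelles and nucleus. Its white pulp holds B and T cells, and plasma cells in both organs secrete antibody, with the J chain joining IgA and IgM into polymers. The healthy lung makes few red cells, and its immune cells include alveolar macrophages, T cells, natural killer cells and a small number of plasma cells.

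The genotype effect differed between the tissues for 98 genes, which is 0.838% of those tested, by limma with a Benjamini-Hochberg adjusted p below 0.05 and a difference above 1 in size. Of these, 68 were higher in spleen (0.582%) and 30 lower (0.257%). Without the requirement on size, 161 genes passed (1.38%), 89 higher (0.761%) and 72 lower (0.616%). Before adjustment, p was below 0.05 for 726 genes in the higher direction (6.21%) and 1898 in the lower (16.2%). The median difference over all genes was -0.14, the middle 90% of genes lay between -0.65 and 0.67, and the median SE was 0.19. Of the 98 genes, 10 (4 higher and 6 lower) reached 1 FPKM in a tissue in all libraries of 1 genotype and in none of the other. The filter admitted these through the group in which they are high, so they are given below as values with no test, and 88 calls (64 higher and 24 lower) remain without them. The adjusted p-values of the 98 genes ran from 0.000169 to 0.0499. With each mouse as a block, which compares the spleen to lung ratio within mice, 57 genes were called and 43 of the 98 were among them. The count rested on single libraries. Without WT lung 1, 2 or 3 it was 14, 85 or 15, and without β3−/− lung 1, 2 or 3 it was 1, 15 or 24. Without WT spleen 1, 2 or 3 it was 170, 4 or 6, and without β3−/− spleen 1, 2 or 3 it was 24, 305 or 7. All 98 kept their direction in every one of those fits. The fits share most of the values that chose the genes, so this is no separate support. The within-mouse spleen to lung ratios of the genotypes did not overlap for any of the 98, as for 30.7% of all genes (7.74% with β3−/− above WT and 22.9% below). The calls are of transcript levels in whole tissue, in which fewer cells of a type and less RNA per cell cannot be told apart. The scatter of the spleen against the lung effect shows both groups of genes.

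**Figure D1:**
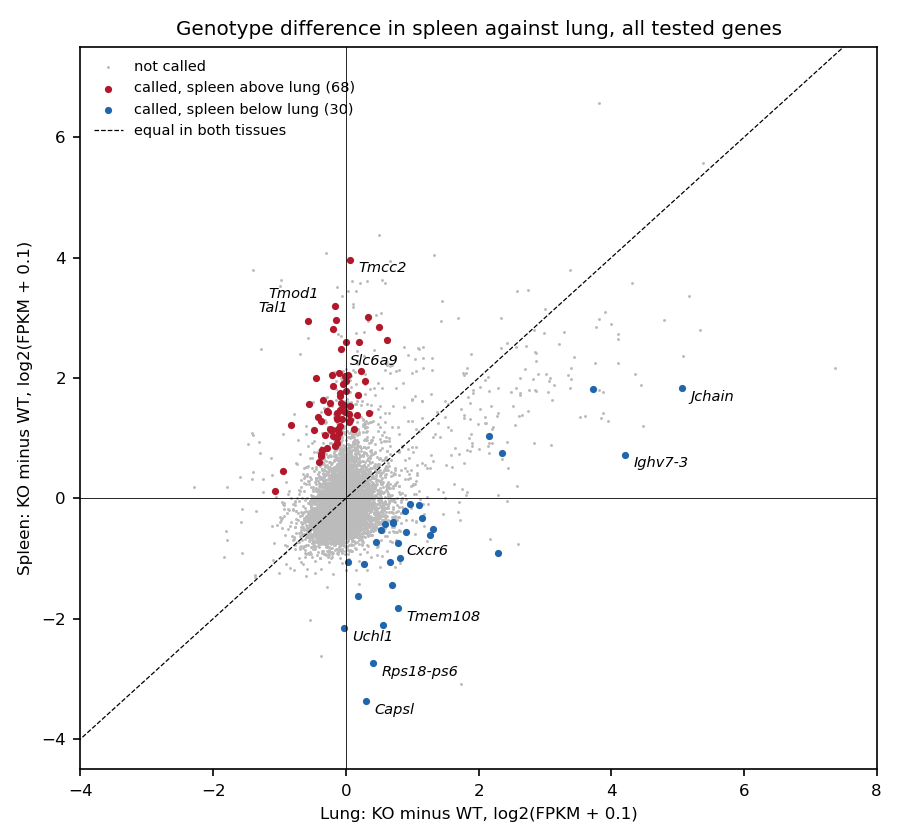
Each point is 1 of 11690 genes, with the β3−/− (KO) minus WT difference in lung on the x axis and in spleen on the y axis, both in log2(FPKM + 0.1). The 68 genes called higher in spleen (red) lie mostly near 0 in lung and above 0 in spleen, and the 30 called lower (blue) lie mostly right of 0 in lung. The dashed line marks equal effects.

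The 68 genes called higher in spleen are described first, by the same values that chose them. Their median effect was 1.44 in spleen and -0.13 in lung, and 61 of them differed from WT by less than 0.5 in lung. By the test, 66 rose in spleen, against 6.82% of all genes, and 2 fell in lung, against 0.214%. Tmcc2, a membrane protein gene abundant in maturing red cells, differed by 3.90 (SE 0.77, adjusted p = 0.0409). Tal1, a transcription factor required for blood formation and red cell differentiation, differed by 3.52 (SE 0.75, adjusted p = 0.0463). Tmod1, which caps actin filaments in the red cell membrane skeleton, differed by 3.36 (SE 0.66, adjusted p = 0.0409). All 3 passed the test, and their adjusted p with the mouse block was 0.0593, 0.071 and 0.0654, which does not pass.

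The promoters of the 10 leading genes were searched for AGATAA, the motif bound by GATA factors, on both strands, because all of them were called higher in spleen. The windows run from 250 bases before to 50 after the start site (RefSeq, GRCm38.p6), and 7 of the 10 genes had one. Windows on the chromosome that carries Fech and Rab27b were left out before matches among the 10 were counted, so no match could be reported for these genes. The count of 7 genes and the counts over all called genes below keep that chromosome. A match was found for Tmcc2 (chr1:132367899-132368198, minus strand) and Tal1 (chr4:115056176-115056475, plus strand), in both as TTATCT, the reverse complement. They are shown 5′ to 3′ with the match in capitals.
Tmcc2: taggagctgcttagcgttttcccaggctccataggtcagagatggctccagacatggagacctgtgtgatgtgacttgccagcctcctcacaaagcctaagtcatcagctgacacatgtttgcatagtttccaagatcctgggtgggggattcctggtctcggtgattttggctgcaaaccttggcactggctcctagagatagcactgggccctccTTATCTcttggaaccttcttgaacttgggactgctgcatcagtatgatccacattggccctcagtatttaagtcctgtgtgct
Tal1: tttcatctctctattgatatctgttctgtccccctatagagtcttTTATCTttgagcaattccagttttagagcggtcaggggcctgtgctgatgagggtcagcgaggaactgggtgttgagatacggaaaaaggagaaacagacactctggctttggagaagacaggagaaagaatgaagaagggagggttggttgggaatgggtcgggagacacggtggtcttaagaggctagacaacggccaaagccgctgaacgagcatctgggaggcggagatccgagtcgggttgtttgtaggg
Over all called genes, 9 of the 53 with a window that were higher in spleen held AGATAA, as did 2 of the 17 that were lower. Among all 9052 tested genes with a window the share was 7.62%. The sequence CACCC was in 43 of the 53, 10 of the 17 and 66.9% of all genes with a window. A match is a run of letters and was not tested for binding.

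Tmod1 lies on chromosome 4, from 46038541 to 46116036 (GRCm39). Its lung levels were 24.1, 30.7 and 33.8 FPKM in WT and 22.7, 24.97 and 31.2 FPKM in β3−/− lung. In spleen they were 4.91, 1.31 and 0.9 FPKM in WT and 26.6, 13.1 and 15.2 FPKM in β3−/− spleen. The lung groups overlapped and the spleen groups did not, although WT spleen 1 lay well above the other WT spleens. Tal1, on chromosome 4, from 114913623 to 114928952, was at 4.95, 7.61 and 5.28 FPKM in WT and 3.08, 3.2 and 6.004 FPKM in β3−/− lung. In spleen, the same gene was at 7.78, 1.64 and 1.57 FPKM in WT and 36.97, 15.8 and 17.95 FPKM in β3−/− spleen. The lung groups overlapped, and every β3−/− spleen lay above every WT spleen. Tmcc2 was at 53.9, 70.03 and 59.96 FPKM in WT and 70.99, 64.9 and 55.96 FPKM in β3−/− lung, where the groups also overlapped. In spleen it was at 25.5, 5.99 and 3.42 FPKM in WT and 194, 84.7 and 127 FPKM in β3−/− spleen. WT spleen 1 was again the highest WT library. Without WT spleen 1, 2 or 3, the number of genes called higher in spleen was 135, 0 or 1. Without β3−/− spleen 1, 2 or 3 it was 13, 208 or 1. Without WT lung 1, 2 or 3 it was 5, 39 or 3, and without β3−/− lung 1, 2 or 3 it was 0, 3 or 10.

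Of 15 heme synthesis genes tested, 3 passed, against 0.761% of all genes, and 12 did not. With the mouse block 1 passed as higher, against 36 of all 11690 genes. All 15 were higher at an unadjusted p below 0.05, against 6.21% of all genes. Their median difference was 1.46, beside -0.14 over all genes, with medians of 1.56 in spleen and -0.05 in lung. Among them were Fech, the enzyme that inserts iron into heme, at 2.40 (SE 0.51, adjusted p = 0.045), and Slc25a37, the mitochondrial iron importer mitoferrin, at 2.19 (SE 0.43, adjusted p = 0.0409). Slc25a37 was at 14.8, 11.6 and 13.8 FPKM in WT and 15.5, 11.6 and 10.6 FPKM in β3−/− lung. The spleen libraries were at 61.2, 33.5 and 33.2 FPKM in WT and 290.2, 133 and 135 FPKM in β3−/− spleen, which separated the genotypes. Slc25a37 also passed with the mouse block, at an adjusted p of 0.0252, while Fech, at 0.0667, did not.

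Among genes of terminal red cell maturation, 6 of 18 passed, against 0.761% of all genes. With the mouse block 3 passed as higher, against 36 of all 11690 genes. At an unadjusted p below 0.05, 17 were higher, against 6.21% of all genes. The median of the 18 was 1.56. Xpo7, a nuclear exporter used as red cell nuclei condense, gave 2.02 (SE 0.26, adjusted p = 0.0141). Its lung levels were 4.47, 4.17 and 4.09 FPKM in WT and 3.97, 4.08 and 4.99 FPKM in β3−/− lung. In spleen they were 9.35, 8.56 and 7.24 FPKM in WT and 47.6, 26.8 and 33.2 FPKM in β3−/− spleen, where the lowest β3−/− library was above the highest WT library and WT spleen 1 did not stand apart. Ube2o, a ubiquitin ligase that remodels the reticulocyte proteome, gave 1.95 (SE 0.30, adjusted p = 0.0263). Bnip3l, needed for the removal of mitochondria from reticulocytes, gave 0.79 (SE 0.14, adjusted p = 0.0392), Mxi1 0.79 (SE 0.17, adjusted p = 0.0442) and Mkrn1 1.08 (SE 0.23, adjusted p = 0.0451). Xpo7 and Ube2o passed with the mouse block (0.0351 and 0.0405), and the other three did not (0.0654, 0.0606 and 0.0642).

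The share of all genes that passed as higher in spleen, for this and the next 2 lists, was 0.761%. Of 10 red cell membrane genes, 2 passed, Tmod1 and Epb41, which encodes the skeletal protein 4.1 and gave 1.54 (SE 0.27, adjusted p = 0.0342). Of 10 erythroid regulators 2 passed, Tal1 and E2f2, a cell cycle regulator of late erythroblasts, at 1.75 (SE 0.34, adjusted p = 0.0409). The erythropoietin receptor gene Epor gave 2.15 (SE 0.56, adjusted p = 0.0723) and the transcription factor gene Nfe2 2.59 (SE 0.62, adjusted p = 0.0613), which did not pass. Bcl2l1, which protects late erythroblasts from death and was chosen here after its values were seen, gave 1.78 (SE 0.28, adjusted p = 0.0305). Slc6a9, a glycine transporter, gave 2.56 (SE 0.48, adjusted p = 0.0392), and Tfdp2, an E2F partner, 2.45 (SE 0.50, adjusted p = 0.0409). Other leading genes were Bex4 at 2.998 (SE 0.59, adjusted p = 0.0409), Cdr2 at 2.68 (SE 0.52, adjusted p = 0.0409) and Rab27b at 2.59 (SE 0.57, adjusted p = 0.0499), the last a regulator of platelet granules that was the 1 gene of 22 platelet and megakaryocyte genes to pass. All 22 lay above the all-gene median, with a median difference of 1.04. In spleen 17 of them rose, against 6.82% of all genes, and the median effect of the 22 there was 1.82. With the mouse block, the adjusted p was 0.0606 for E2f2, 0.0554 for Slc6a9, 0.0517 for Tfdp2 and 0.0593 for each of Bex4, Cdr2 and Rab27b, none of which passes.

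The globin genes and Alas2 did not pass. Hbb-bt, an adult beta globin, was at 778, 973 and 619.95 FPKM in WT and 2357, 1446 and 1568 FPKM in β3−/− lung. In spleen, the same gene was at 4169, 974 and 2991 FPKM in WT and 17800, 8609 and 14715 FPKM in β3−/− spleen. Every β3−/− library lay above every WT library in both tissues, and the difference was 1.34 (SE 0.65, adjusted p = 0.244). Alas2, the first enzyme of heme synthesis in red cells and chosen after its values were seen, gave 1.52 (SE 0.61, adjusted p = 0.175), with effects of 2.94 in spleen and 1.43 in lung. Globin transcripts made up 1.04% to 1.60% of all FPKM in WT lung, 2.23% to 3.34% in β3−/− lung, 1.49% to 5.82% in WT spleen and 11.3% to 20.6% in β3−/− spleen. The near-identical globin copies share reads, so their split is uncertain. Red cell genes of narrow expression such as Klf1 were below 1 FPKM in lung and so were not among the genes tested.

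**Figure D2:**
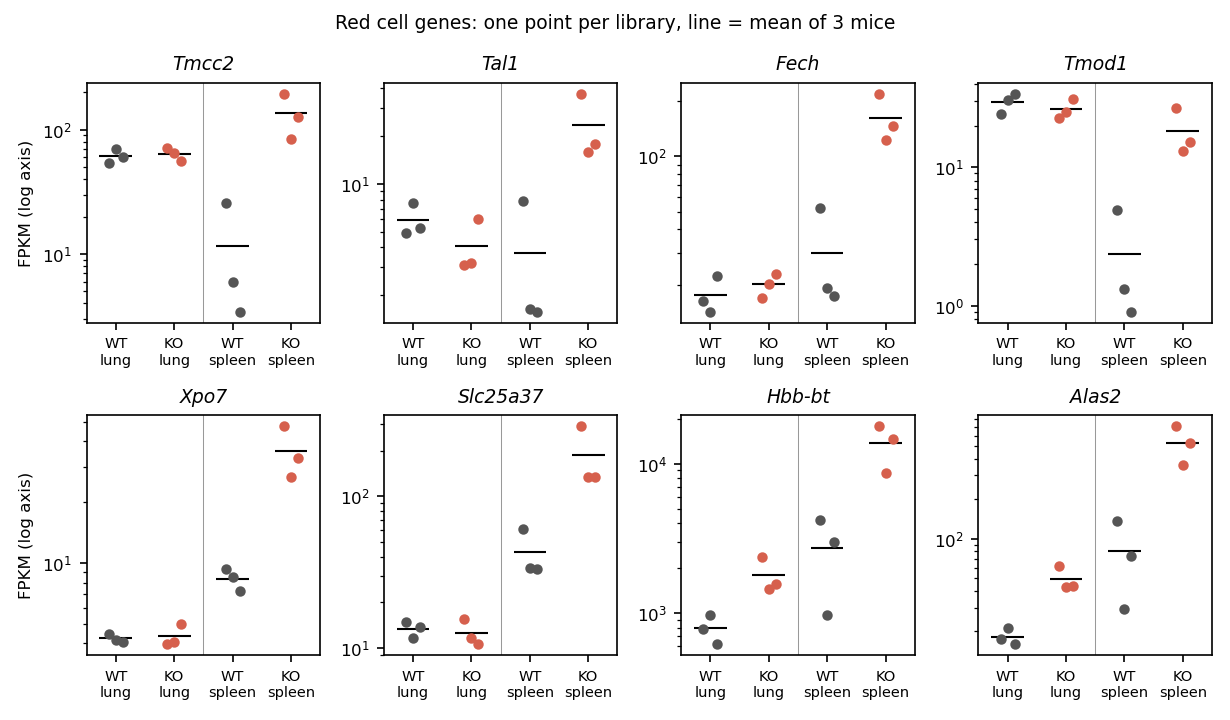
FPKM on a log axis of 8 red cell genes, 1 point per library and a line at the mean of 3 mice, WT in grey and β3−/− (KO) in red. Tmcc2, Tal1, Fech, Tmod1, Xpo7 and Slc25a37 overlap between genotypes in lung and not in spleen, and Hbb-bt and Alas2 are higher in β3−/− libraries of both tissues.

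Of 11 alveolar macrophage genes tested, 2 passed and were higher in spleen, against 0.761% of all genes, and 7 were higher at an unadjusted p below 0.05, with a median of 0.93. The share of all genes at that unadjusted p, for this and the next lists, was 6.21% higher and 16.2% lower. Mrc1, the mannose receptor, was at 14.03, 14.3 and 14.8 FPKM in WT and 9.83, 11.04 and 14.9 FPKM in β3−/− lung. Its spleen levels were 20.7, 20.1 and 23.6 FPKM in WT and 36.7, 37.3 and 41.5 FPKM in β3−/− spleen. The difference was 1.13 (SE 0.19, adjusted p = 0.0341), and it passed with the mouse block (0.0368). Pparg, a nuclear receptor of alveolar macrophages and fat cells, gave 0.98 (SE 0.20, adjusted p = 0.0409), and Mertk, a receptor for apoptotic cells, 0.84 (SE 0.16, adjusted p = 0.0392), which do not pass with the block (0.0737 and 0.0667). Fpr1, a chemoattractant receptor of neutrophils and monocytes, had effects of opposite sign, 1.22 in spleen and -0.83 in lung, and a difference of 2.05 (SE 0.38, adjusted p = 0.0392). Fbxo30, which encodes an F-box protein, likewise had effects of opposite sign and gave 2.12 (SE 0.33, adjusted p = 0.0263). Ccn2, a matricellular protein gene, fell in lung and gave 0.80 (SE 0.16, adjusted p = 0.0409), with 0.0651 in the block. Of the 15 neutrophil granule genes none passed, 6 were higher at an unadjusted p below 0.05, and their median was 1.31. S100a9 was at 178, 165 and 194 FPKM in WT and 449, 326 and 1834 FPKM in β3−/− spleen, where β3−/− spleen 3 lay far above the rest. Cell cycle genes had a median of 0.48 and none of 34 passed, with 7 higher at an unadjusted p below 0.05, and Mki67 gave 1.76 (SE 0.46, adjusted p = 0.0763). None of 35 interferon-stimulated genes passed, although 6 were higher in spleen and 2 were lower by the unadjusted p. Rsad2 gave 2.72, with no test because it reached 1 FPKM in lung in β3−/− mice alone. Fat cell transcripts varied among spleens, with sums over 12 genes of 94.7, 19.9 and 11.3 FPKM in WT and 187, 58.2 and 442 in β3−/− mice. None of the 6 tested passed, and Cfd gave 5.20 (SE 2.08, adjusted p = 0.174). The part of fat cells in the results was not tested beyond leaving out WT spleen 1 and β3−/− spleen 3. That gave 122 calls, and 68 of the 98 were among them.

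**Figure D3:**
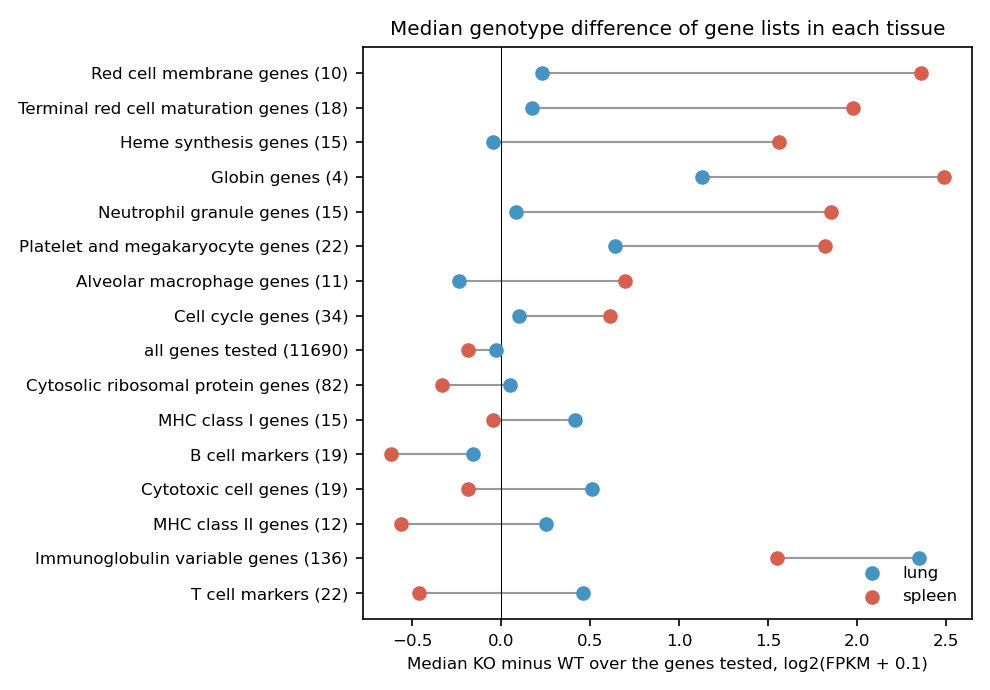
Median β3−/− (KO) minus WT difference over the tested genes of each list (number of genes in brackets), in log2(FPKM + 0.1), in lung (blue) and spleen (red). Heme synthesis genes sit at -0.05 in lung and 1.56 in spleen, T cell markers at 0.46 in lung and -0.46 in spleen, and immunoglobulin variable genes above 0 in both.

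The 30 genes that were lower in spleen were of several kinds. Their median effect was -0.58 in spleen and 0.79 in lung, 29 were above WT in lung, 25 below WT in spleen, and 24 had opposite signs in the tissues. Among all 11690 genes, 5016 were above WT in lung and 3224 above WT in spleen, so most genes were below WT in spleen. A negative difference itself favours these signs, and the 30 include the 6 genes given with no test. Of the 30, 17 passed with the mouse block, against 32 of all 11690 genes that passed there as lower. The gene with the lowest adjusted p was Rps18-ps6, a copy of the ribosomal protein gene Rps18. It was at 4.19, 3.26 and 2.97 FPKM in WT and 4.33, 5.84 and 3.81 FPKM in β3−/− lung. The spleen libraries were at 48.6, 56.5 and 49.6 FPKM in WT and 7.68, 8.21 and 6.97 FPKM in β3−/− spleen, which separated the genotypes by a wide gap, and the difference was -3.15 (SE 0.23, adjusted p = 0.000169). Rps18 itself, named after its values were seen, gave -0.47 (SE 0.20, adjusted p = 0.204). Reads may be split between such copies, which makes the value of Rps18-ps6 uncertain.

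Jchain rose in both tissues, with a far larger ratio in lung and a larger gain in FPKM in spleen. It lies on chromosome 5, from 88667668 to 88675750 (GRCm39) and was at 3.92, 4.22 and 14.2 FPKM in WT and 218, 182 and 234 FPKM in β3−/− lung. The values in spleen were 679, 667 and 771 FPKM in WT and 2474, 2418 and 2628 FPKM in β3−/− spleen. The genotypes did not overlap in either tissue. The effect was 5.07 in lung and 1.83 in spleen, and the difference was -3.24 (SE 0.51, adjusted p = 0.0278), with an adjusted p of 0.0368 in the mouse block. Mzb1, a plasma cell chaperone for antibody assembly, was at 8.49, 6.91 and 6.76 FPKM in WT and 15.7, 16.4 and 11.8 FPKM in β3−/− lung. In spleen it was at 184, 154 and 154 FPKM in WT and 155, 150.5 and 152 FPKM in β3−/− spleen, where the genotypes overlapped. The difference was -1.07 (SE 0.19, adjusted p = 0.0342). Of 14 plasma cell genes tested 2 passed, both lower in spleen, against 0.616% of all genes. By the unadjusted p, 5 of the 14 were higher, against 6.21% of all genes, and 4 lower, against 16.2%. Their median was -0.08, beside -0.14 over all genes. With the mouse block 1 passed as higher and 2 as lower, against 36 and 32 of all 11690 genes. Pdia4, an endoplasmic reticulum folding enzyme, gave -0.51 (SE 0.10, adjusted p = 0.0409), and 0.0749 in the block.

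Of 136 immunoglobulin variable genes tested, 74 rose in β3−/− spleen, against 6.82% of all genes, and 73 in β3−/− lung, against 1.12%. Immunoglobulin genes made up 0.249% to 0.331% of all FPKM in WT lung, 1.02% to 1.53% in β3−/− lung, 5.45% to 6.10% in WT spleen and 11.6% to 12.5% in β3−/− spleen. On the difference between tissues 4 of the variable genes passed, all lower in spleen, against 0.616% of all genes. By the unadjusted p, 32 were lower, against 16.2% of all genes, and 1 was higher, against 6.21%. The median of all 136 was -0.86, with medians of 1.55 in spleen and 2.35 in lung. Ighv7-3 was at 0.88, 0.312 and 0.548 FPKM in WT and 14.6, 4.51 and 24.3 FPKM in β3−/− lung. Spleen values ran at 79.2, 69.1 and 64.7 FPKM in WT and 111, 100.2 and 144 FPKM in β3−/− spleen. It is 1 of the 4, but no WT lung reached 1 FPKM, so its difference of -3.48 is given with no test. Iglv1 gave -1.60 (SE 0.32, adjusted p = 0.0409), Igkv5-39 -3.19 (SE 0.67, adjusted p = 0.0442) and Igkv2-137 -1.46 (SE 0.30, adjusted p = 0.0409), the last at 0.0517 in the block. None of the 9 constant genes passed, with 3 lower at an unadjusted p below 0.05, against 16.2% of all genes. Igha, the constant region of IgA, was at 19.4, 23.7 and 64.5 FPKM in WT and 1444, 1111 and 1354 FPKM in β3−/− lung. The values in spleen were 209.9, 195 and 338 FPKM in WT and 11688, 12427 and 10321 FPKM in β3−/− spleen, and its difference of 0.19 (SE 0.51, adjusted p = 0.854) changed sign with the processing. Igkc, the kappa constant gene, gave -1.04 (SE 0.23, adjusted p = 0.0515). Ighg2c was at 0, 0 and 0.377 FPKM in WT and 13.9, 12.2 and 126 FPKM in β3−/− lung, so the size of its difference is set by the pseudocount and no value is given. Variable genes are close copies of one another, so reads may be split between them.

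T cell markers had a median below WT in spleen and above WT in lung of β3−/− mice, under each scaling tried, with 7 of 22 falling in spleen, against 21.8% of all genes, and none passing in lung. All 22 lay below the all-gene median, with a median of -0.90 made of -0.46 in spleen and 0.46 in lung, and 19 were lower at an unadjusted p below 0.05, against 16.2% of all genes. On the difference 3 passed, against 0.616% of all genes. Cd3d, a subunit of the T cell receptor complex, was at 3.82, 4.53 and 4.3 FPKM in WT and 6.34, 5.68 and 6.27 FPKM in β3−/− lung. Its spleen levels were 38.5, 42.8 and 39.3 FPKM in WT and 22.7, 33.9 and 28.05 FPKM in β3−/− spleen. The genotypes did not overlap in either tissue, and the difference was -1.05 (SE 0.19, adjusted p = 0.0364). Cd247, the zeta chain of the same complex, gave -0.92 (SE 0.18, adjusted p = 0.0409) and Zap70, the kinase that it recruits, -1.02 (SE 0.22, adjusted p = 0.0463). None of these passed with the mouse block (0.0593, 0.0593 and 0.0633).

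Of 19 cytotoxic cell genes 3 passed, all lower in spleen, against 0.616% of all genes, with a median of -0.69 over the list. By the unadjusted p, 9 were lower, against 16.2% of all genes. Ccl5, a chemokine of activated T and natural killer cells, was at 47.6, 70.7 and 55.1 FPKM in WT and 94.5, 114 and 111 FPKM in β3−/− lung. Spleen values ran at 189.99, 211 and 213 FPKM in WT and 141, 185 and 209.7 FPKM in β3−/− spleen, where the genotypes overlapped. The difference was -1.10 (SE 0.23, adjusted p = 0.0416). Il2rb, a subunit of the receptors for interleukins 2 and 15, gave -0.89 (SE 0.19, adjusted p = 0.0423) and Klrd1, the natural killer receptor CD94, -0.95 (SE 0.21, adjusted p = 0.0488). Cxcr6, a homing receptor of tissue T cells, gave -1.52 (SE 0.33, adjusted p = 0.0463), and Trgc1, a constant region of the gamma T cell receptor, -1.87 (SE 0.35, adjusted p = 0.0392). With the mouse block, Klrd1 (0.0648), Cxcr6 (0.0734) and Trgc1 (0.0593) did not pass. Siglech, a marker of plasmacytoid dendritic cells, gave -1.20 (SE 0.23, adjusted p = 0.0409), with effects of 1.10 in lung and -0.11 in spleen.

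Genes of MHC class II, which present peptides to helper T cells, also had a median below WT in spleen (-0.56) and above it in lung (0.25), under each scaling tried, and 11 of 12 fell in spleen, against 21.8% of all genes, while 1 rose in lung, against 1.12%. On the difference 2 passed, against 0.616% of all genes, and 10 were lower at an unadjusted p below 0.05, against 16.2%, with a median of -0.71. H2-Eb1 was at 256, 334 and 265 FPKM in WT and 346, 363 and 349 FPKM in β3−/− lung. In spleen it was at 1504, 1556 and 1668 FPKM in WT and 1067, 1262 and 1007 FPKM in β3−/− spleen. The genotypes did not overlap in either tissue, and the difference was -0.83 (SE 0.17, adjusted p = 0.0442), with 0.0654 in the block. H2-DMb1, which helps load peptides, gave -0.87 (SE 0.15, adjusted p = 0.0341). Of 19 B cell markers 13 fell in spleen, against 21.8% of all genes, and the median effect of the 19 there was -0.62. On the difference none passed, 8 were lower at an unadjusted p below 0.05, against 16.2% of all genes, and the median was -0.52. Of the costimulation genes, Cd40 gave -0.88 (SE 0.27, adjusted p = 0.106) and Ctla4 -0.44 (SE 0.46, adjusted p = 0.587), neither of which passed, nor did the adhesion gene Icam1 at -0.37 (SE 0.15, adjusted p = 0.19).

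The other leading genes that were lower in spleen were mostly at low levels. For 5 of them, Capsl, Matcap2, Tnfrsf19, Acsbg1 and Ggt1, the groups lay on either side of the filter in 1 tissue, so their differences carry no test. Capsl, at 2.57, 4.5 and 2.24 FPKM in WT and 0.0442, 0.371 and 0.28 FPKM in β3−/− spleen, differed by -3.67. Tmem108 was at 0.808, 0.963 and 1.03 FPKM in WT and 1.84, 1.54 and 1.69 FPKM in β3−/− lung. In the spleens it stood at 4.45, 5.6 and 3.66 FPKM in WT and 0.788, 1.45 and 1.47 FPKM in β3−/− spleen. The groups did not overlap in either tissue, β3−/− being above WT in lung and below it in spleen, with a difference of -2.62 (SE 0.34, adjusted p = 0.0141). Of the WT lungs only WT lung 3 reached 1 FPKM, so Tmem108 met the lung filter through the β3−/− libraries. Its test is therefore partly set by the filter. Acsbg1, an acyl-CoA synthetase, gave -2.13, Matcap2 -2.66, Tnfrsf19, a receptor of the TNF family, -1.80, and Ggt1, a glutathione-degrading enzyme, -1.81. Uchl1, a deubiquitinase, gave -2.13 (SE 0.32, adjusted p = 0.0261), and 0.0521 in the block. Adm, which encodes the vasodilator adrenomedullin, was at 3.2, 2.54 and 3.88 FPKM in WT and 10.5, 5.42 and 9.03 FPKM in β3−/− lung. In the spleens it stood at 4.73, 5.17 and 5.9 FPKM in WT and 3.84, 3.81 and 3.31 FPKM in β3−/− spleen. Its difference was -1.83 (SE 0.31, adjusted p = 0.0342). Zfp36, which destabilises cytokine mRNA, gave -0.999 (SE 0.19, adjusted p = 0.0409), S1pr1, a receptor for lymphocyte egress that is also found on endothelium, -0.89 (SE 0.17, adjusted p = 0.0409), and Nfkbia, the NF-kB inhibitor, -0.71 (SE 0.22, adjusted p = 0.103), the last without passing. With the mouse block, Zfp36 (0.0554) and S1pr1 (0.0521) did not pass.

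**Figure D4:**
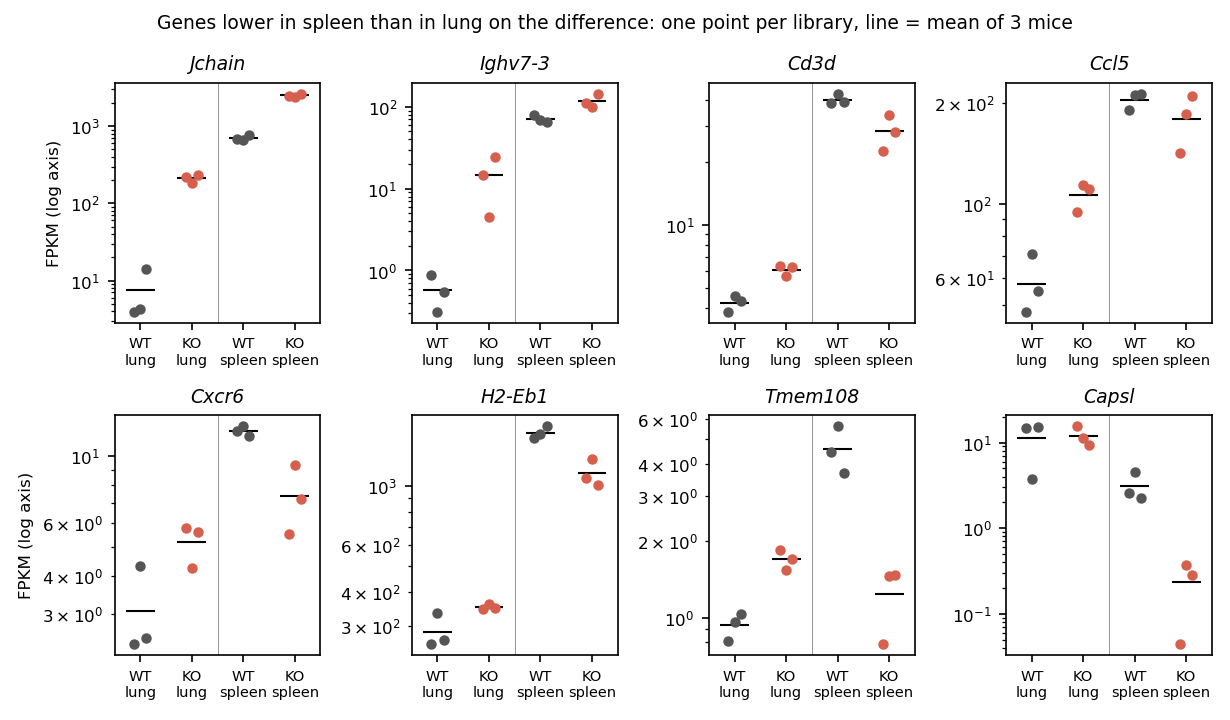
FPKM on a log axis of 8 genes called lower in spleen or passing the adjusted p (H2-Eb1), 1 point per library and a line at the mean of 3 mice, WT in grey and β3−/− (KO) in red. Ighv7-3 and Capsl are shown as values with no test. Jchain is higher in β3−/− libraries of both tissues, with the larger step in lung, and Cd3d, H2-Eb1 and Tmem108 are higher in β3−/− lung and lower in β3−/− spleen.

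The counts moved with the libraries and the scaling, as the plot of calls by setting shows. Of the 98 calls, 69.4% were higher in spleen. That share was 47.9% with values rescaled to a common total and 81.7% with median-of-ratios scaling within each tissue. It was 85.6% with values rescaled to the total without globin and immunoglobulin genes, which were still tested. These scalings moved the median of all genes from -0.14 to -0.28, -0.02 and 0.02. A term for the lung libraries with low Ubb left 33 calls, 14 higher and 19 lower.

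**Figure D5:**
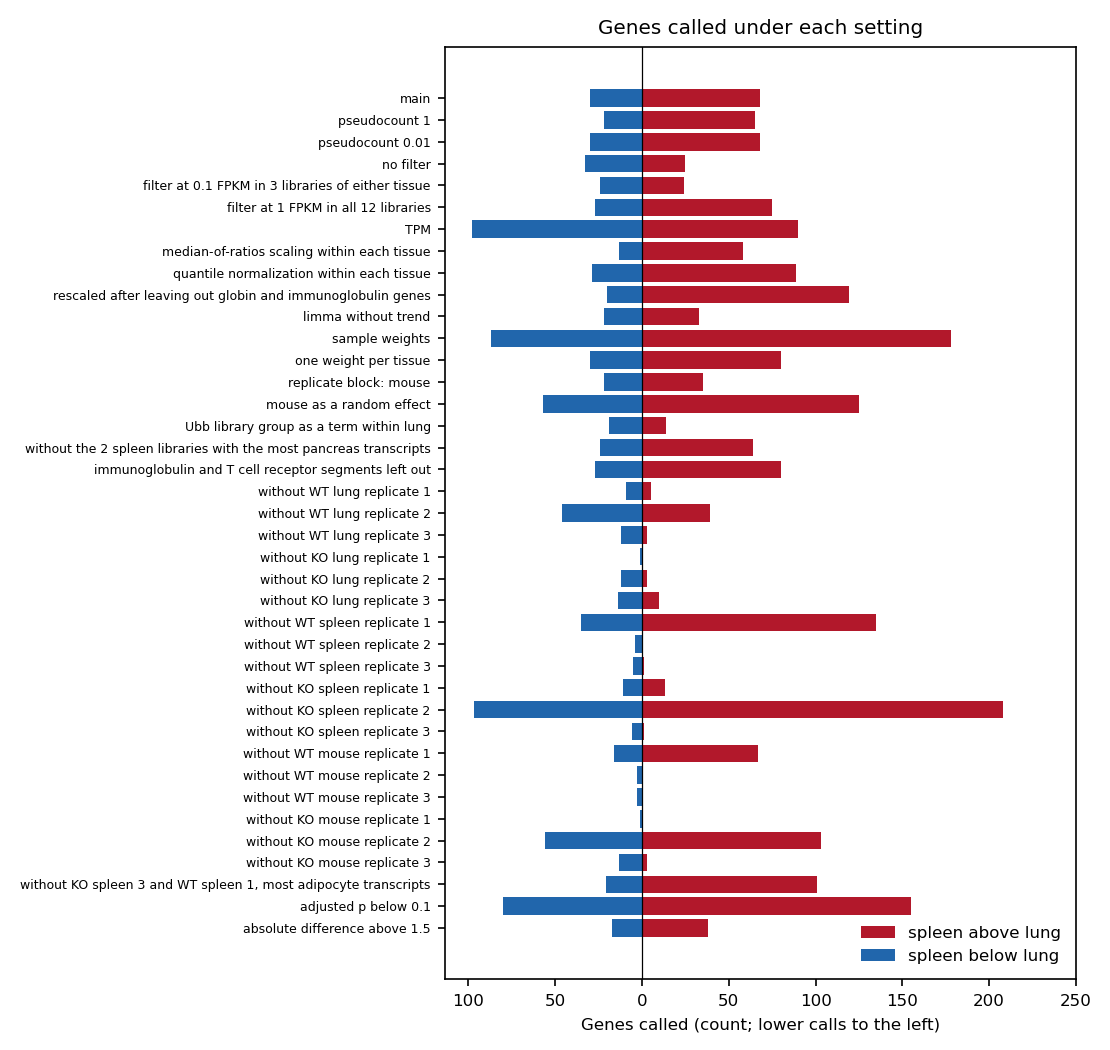
Number of genes called under each setting, higher in spleen to the right (red) and lower to the left (blue). The main setting has 68 and 30, and the settings that leave out 1 library or mouse run from 1 to 305 calls in all.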

How the data were processed

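RNA was sequenced from lung and spleen of the same 3 WT and 3 β3−/− mice (12 libraries, 6 per tissue), which is where the pairing of tissues comes from. Spleen and lung deviations correlated within mice at -0.0085 to 0.196. The deposited FPKM values were made by the authors per tissue, with Trimmomatic, HISAT2, featureCounts and build GRCm39 named in the submitters' processing notes. The tool that gave FPKM is not given in the sources used here. FPKM summed to 455850 to 489157 per lung and 494298 to 593175 per spleen library. The depth is unknown and no counts could be recovered. The labels and the study's methods name different RNA isolation kits.

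Genes were matched by ID, kept at 1 FPKM in at least 3 libraries of each tissue, and fitted with limma 3.58.1 (R 4.3.3, trend, 1 mean per group) on log2(FPKM + 0.1). Of 11690 genes, 47 in lung and 52 in spleen reached 1 FPKM in all libraries of 1 genotype and none of the other, and these had to differ, so no test is given for those named. P-values were two-sided and adjusted over all 11690 genes. An exact permutation test of 3 against 3 mice cannot go below p = 0.1, so none was used. Whether mice were littermates is not given. The p-values of this fit rest on the spread of the 12 libraries within their groups, with lung and spleen of a mouse taken as independent. The spread of the spleen to lung ratio between mice is measured by the fit with the mouse block.

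The genes named were the 10 largest and 10 smallest called differences, leaving out immunoglobulin and T cell receptor segments and unnamed gene models. To these were added the 4 largest and smallest immunoglobulin variable genes, all constant genes, up to 6 genes of each list and called genes of opposite sign. A further 8 genes were chosen for this report where tested: Itgb3, Cd40lg, Cd40, Cxcl2, Nfkbia, Icam1, Ctla4 and Tigit. Not all of these are printed, and some results are not reported here. Genes added after their values were seen are marked as such. The measurement, lists and genes were chosen with earlier results of these data known.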

Additional observations from a re-analysis of the deposited data

Results flagged for a closer look

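Among the genes named above, 47 had a genotype effect that differed between spleen and lung by the test of that difference itself (limma, adjusted p below 0.05), 24 higher in spleen and 23 lower. On the log2(FPKM + 0.1) scale, the differences that were higher in spleen were Tmcc2 3.90, Tal1 3.52, Tmod1 3.36, Bex4 2.998, Cdr2 2.68, Rab27b 2.59, Slc6a9 2.56, Tfdp2 2.45, Fech 2.40, Slc25a37 2.19, Fbxo30 2.12, Fpr1 2.05, Xpo7 2.02, Ube2o 1.95, Bcl2l1 1.78, E2f2 1.75, Epb41 1.54, Mrc1 1.13, Mkrn1 1.08, Pparg 0.98, Mertk 0.84, Ccn2 0.80, Mxi1 0.79 and Bnip3l 0.79. Those that were lower in spleen were Jchain -3.24, Igkv5-39 -3.19, Rps18-ps6 -3.15, Tmem108 -2.62, Uchl1 -2.13, Trgc1 -1.87, Adm -1.83, Iglv1 -1.60, Cxcr6 -1.52, Igkv2-137 -1.46, Siglech -1.20, Ccl5 -1.10, Mzb1 -1.07, Cd3d -1.05, Zap70 -1.02, Zfp36 -0.999, Klrd1 -0.95, Cd247 -0.92, Il2rb -0.89, S1pr1 -0.89, H2-DMb1 -0.87, H2-Eb1 -0.83 and Pdia4 -0.51. Genes that reached 1 FPKM in a tissue in all libraries of 1 genotype and none of the other are left out. Tmem108 came close to this in lung. Most of these genes were named because they passed this test, so their number is no result of its own. Only Rps18-ps6 kept an adjusted p below 0.05 in all 36 alternative fits. Xpo7 lost it in 5 of them, Jchain in 11, Tmcc2 in 20, Tal1 and Fech in 22 each, and Cxcr6, Zap70 and H2-Eb1 in 25 each.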

How the results depend on the processing

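With each mouse as a replicate block, 57 genes were called against 98, 35 of them higher in spleen against 68, and 22 lower. The pairing rests on the study's statement that both tissues came from the same mice. Mouse as a random effect gave 182 calls, 125 higher and 57 lower. Leaving out 1 library or 1 mouse gave 1 to 305 calls in all, 0 to 208 higher and 1 to 97 lower. The direction of all 98 calls was kept in each of these fits, which is no separate support. Leaving out a mouse could not reverse it, because the within-mouse ratios of the genotypes did not overlap. Leaving out 1 library kept most of the values that chose the genes. The single call left without β3−/− lung 1 was lower in spleen.

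No filter on low values gave 58 calls, 25 of them higher, and a filter at 0.1 FPKM gave 48, 24 of them higher, with more genes tested. Rescaling to a common total (TPM) gave 188 calls, 98 of them lower. Median-of-ratios scaling gave 13 lower calls. Rescaling to the total without globin and immunoglobulin genes, which were still tested, gave 119 higher calls. Limma without trend gave 55 calls, 33 of them higher, and sample weights gave 265, 178 higher and 87 lower. A term for the lung libraries with low Ubb gave 33, 14 higher and 19 lower. An adjusted p below 0.1 gave 235 calls, 155 higher and 80 lower, and a difference above 1.5 gave 55, 38 higher and 17 lower. Except where the setting itself tests more genes or changes the threshold, the cause was not tested.

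Leaving out WT spleen 1 and β3−/− spleen 3, an alternative chosen after seeing the data, gave 122 calls, with 68 of the 98 among them. Itgb3 changed sign with a pseudocount of 1 (-0.12), with TPM (-0.047), without the 2 spleens with the most pancreas transcripts (-0.019), and in leave-one-out fits, which ran from -0.067 to 0.27, and it did not pass in any of them. Igha changed sign with quantile normalization (-0.11), without those 2 spleens (-0.017) and in leave-one-out fits, which ran from -0.34 to 0.53.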
